A study of Mus musculus with 30 samples.

Results

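Whole-brain RNA of 10 mice at postnatal day 10 (P10) is described here, 5 Arid1b heterozygous (Arid1b+/-, HT) and 5 wildtype (WT), out of 30 libraries in the series. Each library is one brain, and all 10 libraries of the age were kept. The mice were untreated males on a C57BL/6N background, born to HT fathers and WT mothers. The mutation came from Cas9 nickase editing around exon 5 of Arid1b and is present in every cell, so HT brains carry it in neurons, glia and vessels alike. The study describes the lesion in one place as a deletion that takes in exon 5 with TT inserted, and elsewhere as TT inserted in exon 5. The other 20 libraries are brains at P120, 5 each of HT-Veh, WT-Veh, HT-Flx and WT-Flx, whose dams drank vehicle or fluoxetine while nursing. Those groups are used only for the genes called at P10. Values are normalized counts as deposited, differences are HT minus WT on the log2(value + 1) scale, and 17896 of the 19737 listed genes had a mean of at least 10 and were tested.

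ARID1B is a subunit of the BAF (SWI/SNF) chromatin remodelling complex, which uses ATP to slide or evict nucleosomes and so opens enhancers and promoters. It is interchangeable with ARID1A, so a given complex holds one or the other. Loss of 1 copy of the human gene causes Coffin-Siris syndrome and is a frequent cause of intellectual disability and autism. In mouse brain, P10 falls in the weeks when neurogenesis outside the cerebellum and hippocampus has largely ended, synapses form quickly and myelination starts.

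The sequences at the edited exon show how a message with exon 5, and one without it, would read. Arid1b is read left to right on chromosome 17 (GRCm38, plus strand), and exon 5 of transcript Arid1b-202 occupies chr17:5242828-5243071, a coding stretch of 244 bases. The first line gives the last 30 bases of exon 4 and, in capitals, the first 30 of exon 5. The second gives the same end of exon 4 joined directly to exon 6, up to the first stop codon in the new frame, which is in capitals.
Arid1b-202, exon 4 into exon 5: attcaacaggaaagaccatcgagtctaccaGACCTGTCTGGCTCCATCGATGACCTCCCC
Arid1b-202, exon 4 into exon 6: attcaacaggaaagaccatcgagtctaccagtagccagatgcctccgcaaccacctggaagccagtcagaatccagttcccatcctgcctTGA
A message without exon 5 would keep 621 of the 2244 residues and add 20 in the new frame. No junction was measured here, since the deposited values are sums per gene.

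The summed normalized counts of the 10 libraries ran from 31578600 to 32445800, and read depth is unknown. HT replicate 1 and WT replicate 1 stood apart. HT replicate 1 lay at the far end of the component of a principal component analysis that held 24.7% of the variance, and WT replicate 1 at the far end of the next, with 15.6%. In HT replicate 1 the 13 mitochondrially encoded messages summed to 1392580 against 1025230 to 1161750 in the other 9, and Malat1, a nuclear noncoding RNA, stood at 72977 against 20431 to 38425. In WT replicate 1 Col1a1, a fibrillar collagen of meninges and bone, stood at 12759 against 1213 to 2505. The 19 tested hindbrain and spinal cord markers summed to 857 in HT replicate 1, 1607 in WT replicate 1 and 1908 in HT replicate 3, against 2433 to 2880 elsewhere. Hoxb5, a hindbrain and spinal cord homeobox gene, was listed at 0 in HT replicate 1. The main results are therefore also given without HT replicate 1 and WT replicate 1, and where the hindbrain sum matters also without HT replicate 3.

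**Figure D1:**
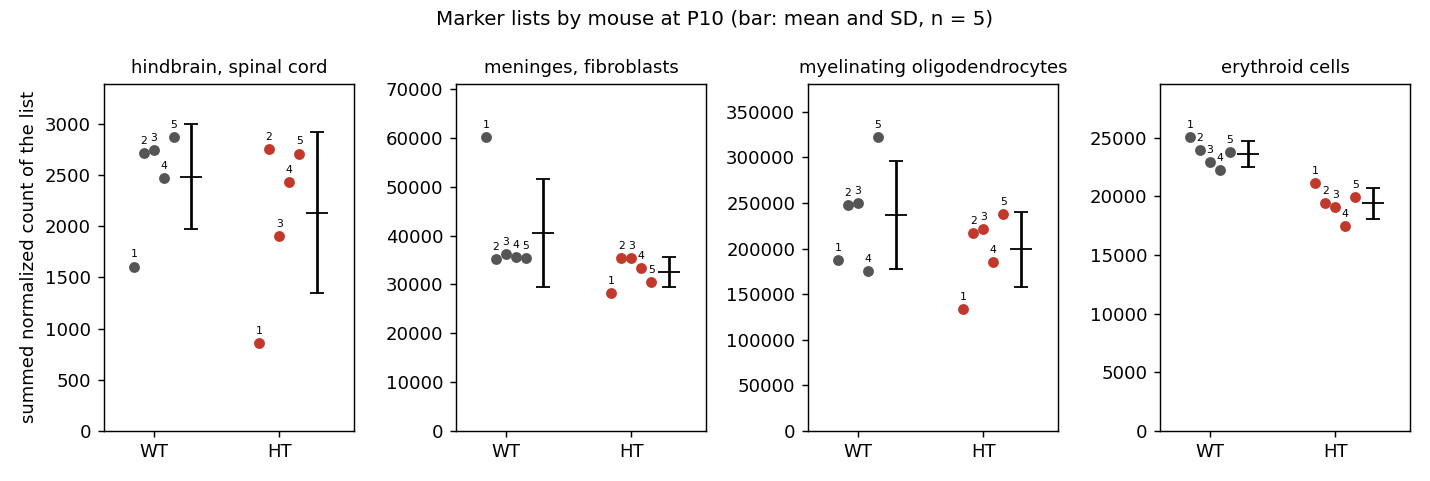
Summed normalized counts of the tested members of 4 marker lists in each mouse (numbers are replicate numbers), with the mean and SD of each group of 5. HT replicate 1 is lowest for hindbrain at 857, and WT replicate 1 is highest for meninges at 60313. The erythroid sums, which include the globins, do not overlap between the groups.

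Arid1b itself was lower in HT brains, in the direction its label predicts. Its normalized counts were 2162, 2334, 2246, 2248 and 2180 in HT and 3271, 3281, 3292, 3309 and 3164 in WT. The groups did not overlap, and the HT mean was 68.5% of WT (2234 ± 68.2 against 3263 ± 57.4, SD, n = 5 each). The log2 difference was -0.55 ± 0.04 (SE), with an adjusted p of 1.52e-05 (limma with Benjamini-Hochberg adjustment over all tested genes, used throughout). The exact permutation test gave p = 0.00794, two-sided, the smallest that 252 splits allow. Leaving out HT replicate 1 and WT replicate 1 gave -0.53.

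None of the 29 other BAF and PBAF subunits passed the adjusted threshold, and their differences had a median of 0.01. Arid1a, the alternative to ARID1B in the complex, averaged 5987 ± 209 in HT and 5961 ± 169 in WT, a difference of 0.01. The ATPases Smarca4 and Smarca2 had differences of -0.06 and 0.07, and Smarcc2, a core scaffold, had 0.05. At an unadjusted p under 0.05, 2 subunits were higher and 2 lower, against 5.73% and 6.84% of all tested genes, which is 1025 and 1224 genes. These were Bcl11b (3217 against 2918) and Pbrm1 (2689 against 2425) on the higher side, and Smarcd2 (626 against 706) and Dpf2 (1662 against 1833) on the lower. BCL11B is a DNA-binding subunit of neuronal BAF, PBRM1 the bromodomain subunit that marks PBAF, SMARCD2 a core accessory subunit and DPF2 a histone reader. The groups overlapped for all 4.

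Across all genes 4 passed the adjusted threshold, 0.0224% of those tested: Arid1b and Hbb-bs fell, and the pseudogenes Tmem181b-ps and Tmem181c-ps rose, 0.0112% in each direction. With no adjustment 2249 genes had a p under 0.05, or 12.6%. The 5 HT and 5 WT values did not overlap for 558 genes, or 3.12%, of which 256 were higher and 302 lower in HT, but after median-of-ratios rescaling 298 of 582 were higher. The median difference over all genes was -0.01, and 47.1% lay above 0. With HT replicate 1 and WT replicate 1 left out, 8 genes passed, or 0.0449%: these 4 together with Dynlt1b, Hba-a2, Mycbpap and C530025M09Rik. With HT replicate 3 left out as well, Arid1b and Tmem181b-ps passed, or 0.0112%.

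**Figure D2:**
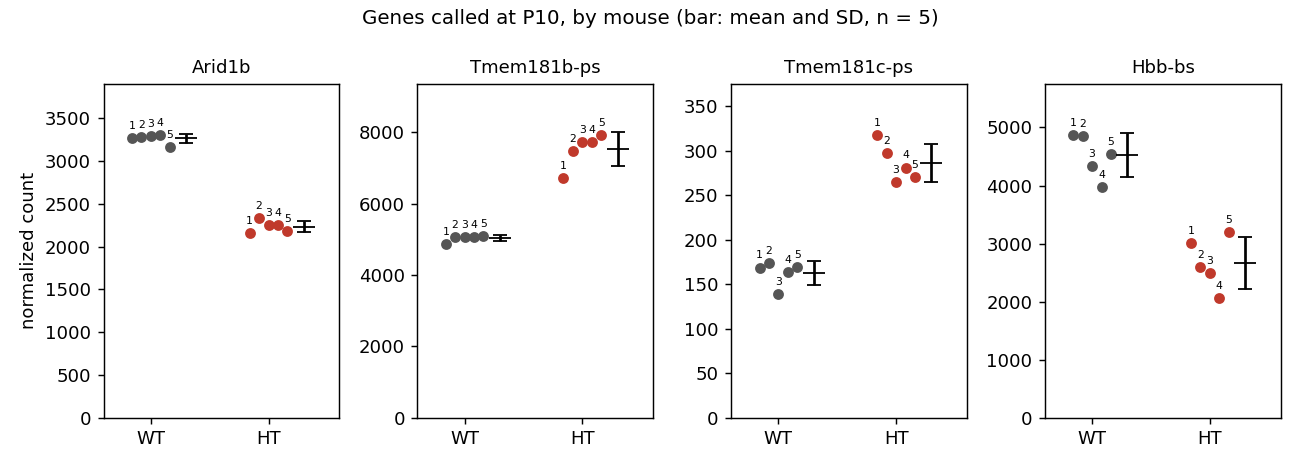
Normalized counts of the 4 genes past the adjusted threshold in each mouse (numbers are replicate numbers), with mean and SD, n = 5. Arid1b and Hbb-bs are lower in every HT mouse than in any WT mouse, and the Tmem181 pseudogenes are higher.

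Both risen pseudogenes lie on the same chromosome as Arid1b. They are copies of Tmem181a, which encodes a multipass membrane protein. Tmem181b-ps stood at 6711, 7477, 7720, 7737 and 7932 in HT and 4871, 5065, 5062, 5065 and 5086 in WT. Its difference was 0.58 ± 0.04 (SE), with an adjusted p of 5.92e-05 from limma. Every HT mouse was above every WT mouse, by more than the spread within either group. Tmem181c-ps stood at 318, 297, 264, 281 and 270 in HT and 169, 173, 139, 164 and 169 in WT. Its difference was 0.81 ± 0.09 (SE), with an adjusted p of 0.00161 from limma.

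The copies are close in sequence, so estimated reads may be shared among them. The transcript annotated as the Tmem181b-ps pseudogene matched Tmem181a-204 at 99.4% of 1415 aligned positions, and Tmem181c-ps matched it at 95.9% of 1386, gaps counted as differences. A coding stretch of Tmem181a, chosen as the 60 bases with most mismatches to Tmem181b-ps, is shown with the differing bases in capitals.
Tmem181a: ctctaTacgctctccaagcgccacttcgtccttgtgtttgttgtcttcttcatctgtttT
Tmem181b-ps: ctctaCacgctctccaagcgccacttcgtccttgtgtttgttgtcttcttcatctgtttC
Even in this stretch only 2 bases tell the copies apart. The sum of all 3 copies is less open to such splitting. It ran from 12910 to 13944 in HT and from 10114 to 10477 in WT, with a difference of 0.40. Each of the 3 copies was higher with groups that did not overlap, so those of the sum could not overlap either. The exact permutation p of the sum, 0.00794, was therefore fixed in advance and adds no support.

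The neighbourhood held further high values, picked here after their values were seen. Tmem181a starts 1263 kb downstream of the Arid1b start and stood between 5623 and 5926 in HT and between 5042 and 5238 in WT. Its groups did not overlap, but its difference of 0.17 had an adjusted p of 0.124 from limma. Dynlt1b, a dynein light chain gene next to Tmem181b-ps, starts at 1436 kb. The Dynlt1b values were 2711, 3677, 3406, 3807 and 3317 in HT and 2570, 2488, 2633, 2726 and 2183 in WT. HT replicate 1 alone lay within the WT range. Its difference was 0.42 with an adjusted p of 0.178, and without HT replicate 1 and WT replicate 1 it was 0.50 with an adjusted p of 0.0291 from limma. Its paralogues Dynlt1a, Dynlt1c and Dynlt1f had differences of -0.09, -0.05 and -0.01. The sum of these 4 Dynlt1 genes had a difference of 0.22, with HT replicate 1 at 4590 within the WT range of 4220 to 5264 (exact permutation p = 0.0635). Of the 6 tested genes that start within 1 Mb of Arid1b, Arid1b alone was called or had groups that did not overlap. Snx9, Tmem242, Zdhhc14, Synj2 and Gm29050 had differences from -0.17 to -0.02.

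**Figure D3:**
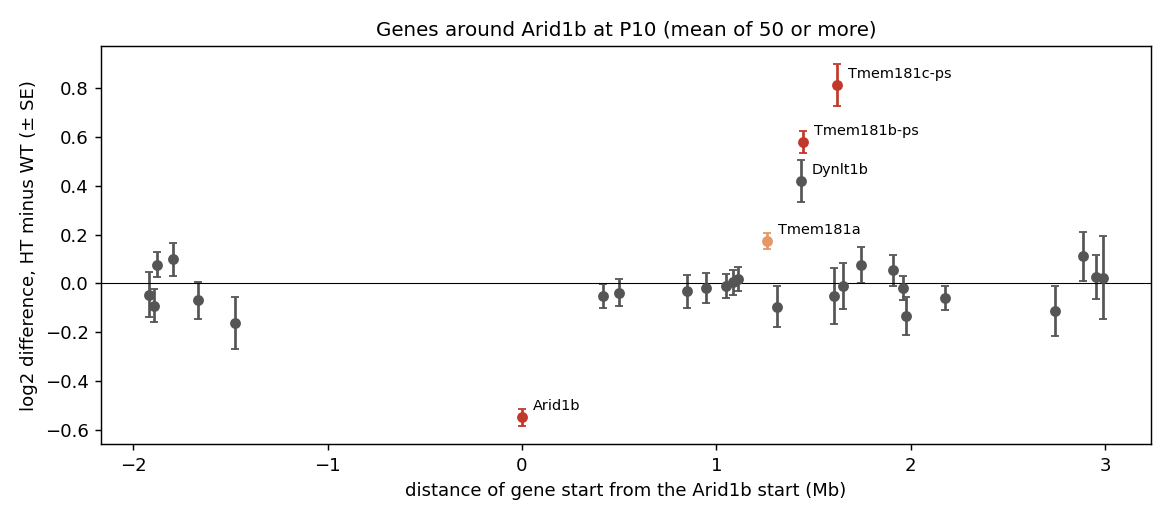
Log2 difference with its SE for each tested gene with a group average of 50 or more that starts within 3 Mb of Arid1b, by distance along chromosome 17. Red points passed the adjusted threshold, the orange point has groups that do not overlap, and the points above 0.15 are Tmem181a, Tmem181b-ps, Tmem181c-ps and Dynlt1b.

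Hbb-bs fell in HT brains, and the other globins had lower values. Globins are the messages of red blood cells, and in bulk RNA fewer cells of a type and less RNA per cell cannot be told apart. Hbb-bs, the major adult beta globin, stood at 3001, 2589, 2487, 2054 and 3194 in HT and 4878, 4857, 4340, 3980 and 4547 in WT. Its difference was -0.77 ± 0.10 (SE), with an adjusted p of 0.0140 from limma. That call was lost when any 1 of 6 libraries was left out (HT replicates 2 and 3, WT replicates 1, 2, 3 and 5), with adjusted p up to 0.0724, and it was also lost without a variance trend (adjusted p of 0.0949 from limma). Hbb-bt, Hba-a1 and Hba-a2 had differences of -0.80, -0.63 and -0.70, groups that did not overlap, and adjusted p of 0.151, 0.118 and 0.118. With the replicate number as a block all 3 were called, among 7 genes. Paralogous globins share sequence, 95.0% of 582 aligned positions for the beta pair and 99.8% of 538 for the alpha pair. The summed beta pair ran from 2321 to 3682 in HT and 4579 to 5785 in WT, and the summed alpha pair from 2868 to 4797 in HT and 5619 to 7115 in WT.

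Of 20 erythroid markers, 11 were in the table and tested. At an unadjusted p under 0.05, 5 were lower and 0 higher. The groups did not overlap for 4 on the lower side and 1 on the higher, against 1.69% and 1.43% of all genes. Those 4 were Hbb-bs, Hbb-bt, Hba-a1 and Hba-a2, the globins given above, so they add no further genes. None of the other markers was lower with no overlap. The median difference of the 11 markers was -0.63, and without HT replicate 1 and WT replicate 1 it was -0.24.

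The other large differences did not pass the adjusted threshold. Among genes with a mean of at least 50 whose groups did not overlap, the highest after the Tmem181 copies were Rac2, Malat1, Fam205c, Aox1, Itga8 and Pla2g3, with differences from 0.44 to 0.71 and adjusted p from 0.123 to 0.304. Rac2, a small GTPase of blood and microglial cells, stood at 134, 74.4, 93.3, 159 and 80.9 in HT and 54.1 to 70.2 in WT. Itga8, an integrin subunit, stood at 232 to 313 in HT and 169 to 209 in WT. Malat1 stood at 26524 to 38425 in HT replicates 2 to 5 and 20431 to 25648 in WT. Its difference was 0.70, and 0.50 without HT replicate 1 and WT replicate 1.

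On the lower side, beside the globins, were Emilin1, Serpind1, Kif2c and Mfrp, with differences from -0.77 to -0.62 and adjusted p from 0.124 to 0.256. Emilin1, an elastic-fibre glycoprotein of vessels and connective tissue, stood at 126 to 221 in HT and 245 to 339 in WT. Kif2c, a kinesin that depolymerizes microtubules in mitosis, stood at 67.6 to 107 in HT and 114 to 178 in WT. Mfrp stood at 72.9 to 77.9 in HT and 89.5 to 140 in WT. Oxt, the oxytocin gene, had low counts and stood at 28.3, 43.2, 57.0, 51.7 and 44.9 in HT and 58.7, 63.9, 80.1, 59.0 and 75.2 in WT.

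The remaining gene groups are described by how many members had an unadjusted p under 0.05. Apart from Hbb-bs, no listed gene passed the adjusted threshold, so these are counts over lists and not calls of genes. Each is to be read beside the share of all tested genes, 5.73% higher and 6.84% lower. For groups that do not overlap the shares of all tested genes were 1.43% higher and 1.69% lower. With HT replicate 1 and WT replicate 1 left out the shares of all genes were 4.25% and 5.36%, and with HT replicate 3 left out as well 4.24% and 5.48%. The cell number and RNA content of each type were not measured.

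**Figure D4:**
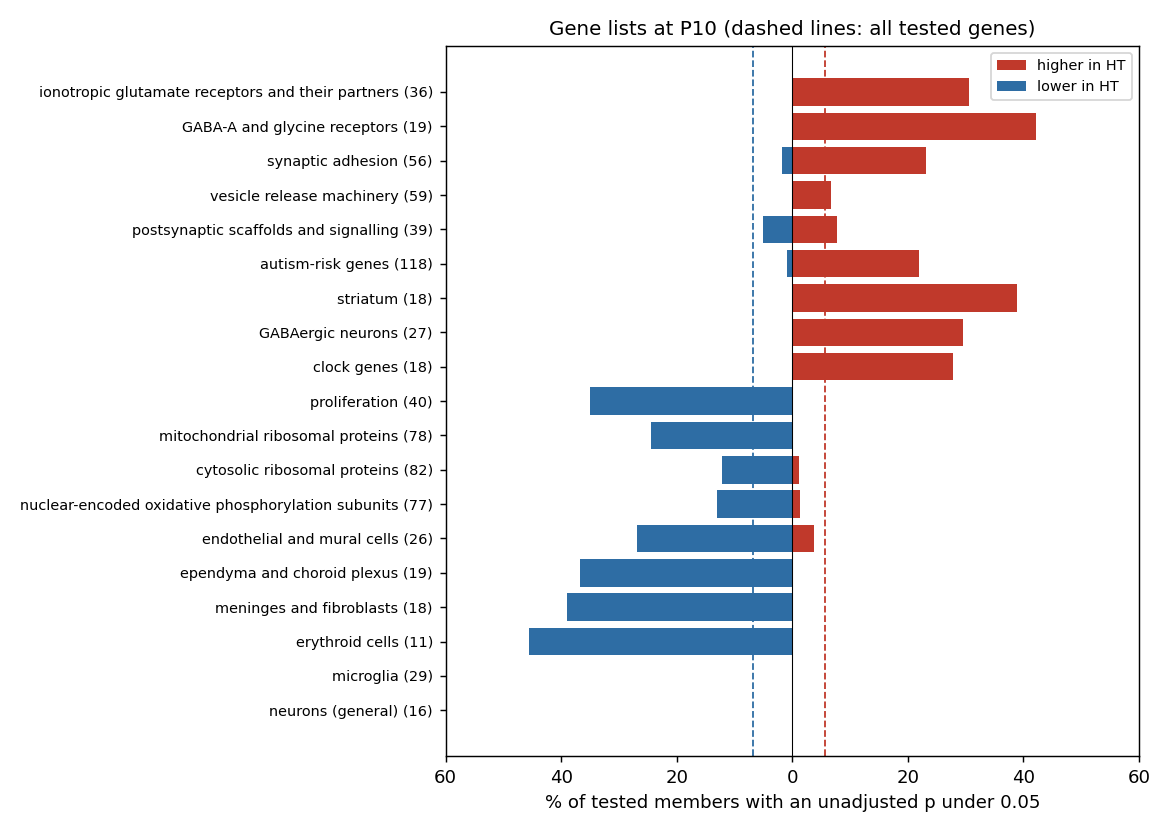
Share of the tested members of 19 lists (number in parentheses) with an unadjusted p under 0.05, higher in HT to the right and lower to the left. Dashed lines mark the shares over all tested genes, 5.73% and 6.84%. Synaptic receptor and adhesion lists extend to the right, and proliferation, ribosome and vascular or barrier lists to the left.

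Ionotropic glutamate receptor genes leaned to the higher side. These encode the channels, such as AMPA and NMDA receptors, that carry fast excitation, and their auxiliary proteins. Of 36 tested, 11 were higher and 0 lower, 30.6% against 5.73%, and the groups did not overlap for 3, against 1.43% of all genes on the higher side. The median difference was 0.05. Gria2, the AMPA subunit that makes the channel impermeable to calcium, stood at 20923, 17474, 17470, 17859 and 19154 in HT and 15695, 16334, 16201, 16601 and 16990 in WT. Every HT value was above every WT value. Its difference was 0.18 ± 0.05 (SE), with an adjusted p of 0.292. Grin3a, an NMDA subunit of juvenile synapses, averaged 4638 ± 258 against 4079 ± 301. Nptxr, which clusters AMPA receptors, was about level at 20872 ± 212 against 21081 ± 463. Without HT replicate 1 and WT replicate 1, 10 of 36 were higher and 0 lower, against 4.25% and 5.36% of all genes.

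Receptors for GABA and glycine, the inhibitory transmitters, leaned the same way. Of 19 tested, 8 were higher and 0 lower, with a median of 0.11, but without HT replicate 1 and WT replicate 1 only 3 were higher, 1 lower and the median 0.05. Gabra2 stood at 4037 to 4604 in HT and 3836 to 4048 in WT. Gabrg3 stood at 1542 to 1849 in HT and 1397 to 1529 in WT, with no overlap. Gabrg1 averaged 1059 ± 48.4 against 951 ± 40.3. Gabbr1, the metabotropic GABA receptor subunit, did not follow, at 21743 ± 1125 against 21692 ± 645.

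Synaptic adhesion genes, which hold the pre- and postsynaptic membranes together, gave 13 of 56 higher and 1 lower, 23.2% against 5.73%. The groups did not overlap for 4, all on the higher side, against 1.43% of all genes on that side. Ncam2, a neural cell adhesion molecule, stood at 4042, 3571, 3548, 3893 and 3855 in HT and 3085, 3194, 3189, 3224 and 3239 in WT. It had the smallest p of the list, with a difference of 0.25 ± 0.04 (SE) and an adjusted p of 0.123. Cbln2, a secreted synapse organizer that binds neurexins, stood at 1018 to 1124 in HT and 888 to 967 in WT. Adgrl2, a latrophilin, averaged 5394 ± 128 against 4629 ± 416. The counts were 10 and 0 without HT replicate 1 and WT replicate 1.

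Scaffolds and the release machinery did not lean as far. Of 39 tested postsynaptic scaffold and signalling genes, 3 were higher and 2 lower. Dlg2, a membrane-associated guanylate kinase of the postsynaptic density, stood at 16832 to 18238 in HT and 15848 to 16444 in WT. Gphn, which anchors inhibitory receptors, averaged 2813 ± 198 against 2596 ± 32.2, and Dlgap3 averaged 9541 ± 712 against 10322 ± 268. Of 59 release genes, 4 were higher and 0 lower, 6.78% against 5.73%, with a median of -0.01. Stxbp5, a tomosyn that restrains fusion, stood at 3888 to 4097 in HT and 3444 to 3773 in WT. Syt1, the fast calcium sensor, averaged 33980 ± 1894 against 32556 ± 761.

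Counts in the ion channel lists were small. Sodium channels gave 2 of 11 higher, 18.2% against 5.73% of all genes, and 1 without HT replicate 1 and WT replicate 1. Calcium channels gave 1 of 16 higher and potassium channels 3 of 48 with 1 lower, 6.25% higher in each. Scn2a, the sodium channel of early axon initial segments, stood at 11887 to 13924 in HT and 11405 to 11671 in WT. Kcnd2 stood at 4062 to 4354 in HT and 3843 to 3937 in WT. The 7 metabotropic glutamate receptors gave 0 in either direction.

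Serotonin genes gave 3 of 21 higher and 1 lower, 14.3% and 4.76% against 5.73% and 6.84% of all genes. The 3 higher were receptors whose groups did not overlap, as was so for 1.43% of all genes on the higher side. Htr7 stood at 612, 618, 584, 610 and 624 in HT and 522, 564, 514, 512 and 476 in WT, a difference of 0.24 ± 0.06 (SE). Htr2c stood at 2674 to 3038 in HT and 2357 to 2627 in WT. Htr1a, the somatic autoreceptor, stood at 523 to 603 in HT and 483 to 504 in WT. The adjusted p of these receptors ran from 0.247 to 0.317. The mice at this age had received no fluoxetine.

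Activity-induced genes gave 3 of 34 higher and 2 lower. Per1, a clock and activity gene, stood at 2436, 2400, 2586, 2522 and 2394 in HT and 2170, 2114, 2086, 2010 and 2341 in WT. Egr3 averaged 2449 ± 172 against 2236 ± 99.8, and Ier5 averaged 811 ± 32.3 against 910 ± 60.1. The 18 clock genes gave 5 higher and 0 lower, and 2 higher without HT replicate 1 and WT replicate 1. Neuropeptide genes gave 7 of 28 higher and 3 lower. Pdyn, the dynorphin precursor, stood at 827 to 912 in HT and 712 to 797 in WT, and Scg2, a granin, stood at 6797 to 8288 and 6226 to 6630. Sst, a marker of a class of interneurons, averaged 4059 ± 152 against 3730 ± 122.

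Proliferation genes leaned to the lower side. These are the mitotic kinases, cyclins and spindle motors of dividing cells, which at P10 include cerebellar granule cell precursors and glial precursors. Of 40 tested, 14 were lower and 0 higher, 35.0% against 6.84%, and 38 of 40 differences lay below 0, with a median of -0.23. Kif11, a spindle motor, stood at 333, 266, 311, 349 and 266 in HT and 399, 408, 447, 491 and 336 in WT. WT replicate 5 was within the HT range. Bub1, a spindle checkpoint kinase, stood at 79.4 to 90.8 in HT and 92.7 to 143 in WT. Ccnb2, a mitotic cyclin, averaged 109 ± 22.6 against 143 ± 15.9. Ccnd2, a cyclin of precursors, averaged 3572 ± 216 against 3796 ± 265. Without HT replicate 1 and WT replicate 1, 5 were lower and 0 higher, and without HT replicate 3 as well 3 were lower, where 5.48% of all genes were. The median was -0.19 in both cases.

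Progenitor and immature neuron genes gave 7 of 30 lower and 1 higher, and 4 lower and 1 higher without HT replicate 1 and WT replicate 1. Neurod1, a granule neuron transcription factor, stood at 2995 to 3782 in HT and 3818 to 4111 in WT. Nes, the intermediate filament nestin of progenitors and vessels, stood at 627 to 775 in HT and 792 to 926 in WT. Sox1 went the other way, at 593 to 729 in HT and 506 to 579 in WT. The median of the list was -0.01.

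Mitochondrial ribosomal and respiratory genes leaned to the lower side with small differences. Of 78 mitochondrial ribosomal protein genes, 19 were lower and 0 higher, 24.4% against 6.84%, and the groups did not overlap for 8, against 1.69% of all genes on the lower side. The median was -0.08. Mrps21 stood at 580, 599, 562, 529 and 591 in HT and 671, 632, 668, 658 and 697 in WT, a difference of -0.22 ± 0.05 (SE). Mrpl34 stood at 509 to 590 in HT and 595 to 665 in WT, and Mrps25 at 1110 to 1304 and 1311 to 1382. Mrps5, whose value was in the other direction, averaged 1923 ± 148 against 1809 ± 31.1. With both mice that stood apart left out, 15 were lower and 0 higher, and 12 without HT replicate 3 as well.

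Nuclear-encoded oxidative phosphorylation genes gave 10 of 77 lower and 1 higher, with 65 of 77 below 0 and a median of -0.07. Without HT replicate 1 and WT replicate 1, 13 were lower and 1 higher. Atp5e, a small subunit of ATP synthase, averaged 1706 ± 93.2 against 1922 ± 85.3. Ndufc2, of complex I, averaged 1708 ± 115 against 1547 ± 99.5. Cytosolic ribosomal protein genes gave 10 of 82 lower and 1 higher, but 6 lower without HT replicate 1 and WT replicate 1 and 3 lower without HT replicate 3 as well, where 5.36% and 5.48% of all genes were lower. Rps10, a small-subunit protein gene, averaged 2752 in HT against 3061 in WT. The 13 mitochondrially encoded messages gave 2 higher and 0 lower, with a median of 0.11 that went to -0.01 without HT replicate 1 and WT replicate 1.

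Markers of neurons in general gave 0 of 16 in either direction, and those of microglia 0 of 29. Glutamatergic neuron markers gave 6 of 25 higher and 0 lower, and 7 without HT replicate 1 and WT replicate 1. GABAergic neuron markers gave 8 of 27 higher and 0 lower, but 3 without those mice. Striatal markers gave 7 of 18 higher and 0 lower, and 5 without them, with Foxp1 at 2926 to 3304 in HT and 2497 to 3104 in WT. The 16 general neuron markers, among them Snap25 and Map2, summed to between 315412 and 329755 in every mouse, as the brain label predicts, and of 10 pituitary markers only 2 reached the mean needed for a test.

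Oligodendrocyte markers were lower in value but spread widely. Of 38 myelinating oligodendrocyte genes, 4 were lower and 0 higher, 10.5% against 6.84%, although 37 differences lay below 0 with a median of -0.25. Their summed level ran from 133149 to 237612 in HT and 175183 to 322978 in WT. Mbp, myelin basic protein, stood at 46226, 84640, 84696, 70010 and 90537 in HT and 69838, 95323, 97057, 63929 and 123586 in WT, so the groups overlapped. Among precursors Olig1, a lineage transcription factor, stood at 5205, 5847, 5844, 5818 and 5730 in HT and 6255, 6730, 6486, 6382 and 7144 in WT. Every HT value was below every WT value, and the difference of -0.21 ± 0.05 (SE) had an adjusted p of 0.215. Gpr17, of cells about to differentiate, averaged 6793 ± 1450 against 9407 ± 947.

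Vessel, barrier and meningeal lists leaned lower. Endothelial and mural cell genes gave 7 of 26 lower and 1 higher, and 8 lower and 1 higher without HT replicate 1 and WT replicate 1. Of that list Vtn, a pericyte gene, stood at 1138 to 1868 in HT and 1900 to 2285 in WT, and Rgs5, another, at 4745 to 4883 and 5008 to 5537. Col4a1 and Col4a2 are not in that list but in the collagen list, where 3 of 25 were higher and 6 lower. Col4a1, a main basement membrane collagen, stood at 4963 to 6269 in HT and 6482 to 7558 in WT, and its partner Col4a2 at 4819 to 5269 and 5297 to 5665. Ependymal and choroid plexus genes gave 7 of 19 lower and 0 higher, 5 lower without those mice and 2 without HT replicate 3 as well. Ttr, the choroid plexus carrier of thyroid hormone, averaged 9651 ± 2006 against 12305 ± 1667. Meningeal and fibroblast genes gave 7 of 18 lower and 0 higher, and 6 lower and 1 higher without them. Igf2, a growth factor made by meninges and choroid plexus, stood at 2756, 5036, 4922, 4582 and 3309 in HT and 6593, 5411, 5661, 5521 and 5429 in WT. The summed erythroid markers, which include the globins given above, ran from 17436 to 21110 in HT and 22239 to 25102 in WT. The part of tissue composition in the counts of these lists was not tested.

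Hindbrain and spinal cord markers gave 0 of 19 in either direction, and 2 of 20 lower and 1 higher without HT replicate 1 and WT replicate 1. Their median was -0.57, went to -0.26 without HT replicate 1 and WT replicate 1 and to -0.06 without HT replicate 3 as well. Their part in the other lists was not tested.

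**Figure D5:**
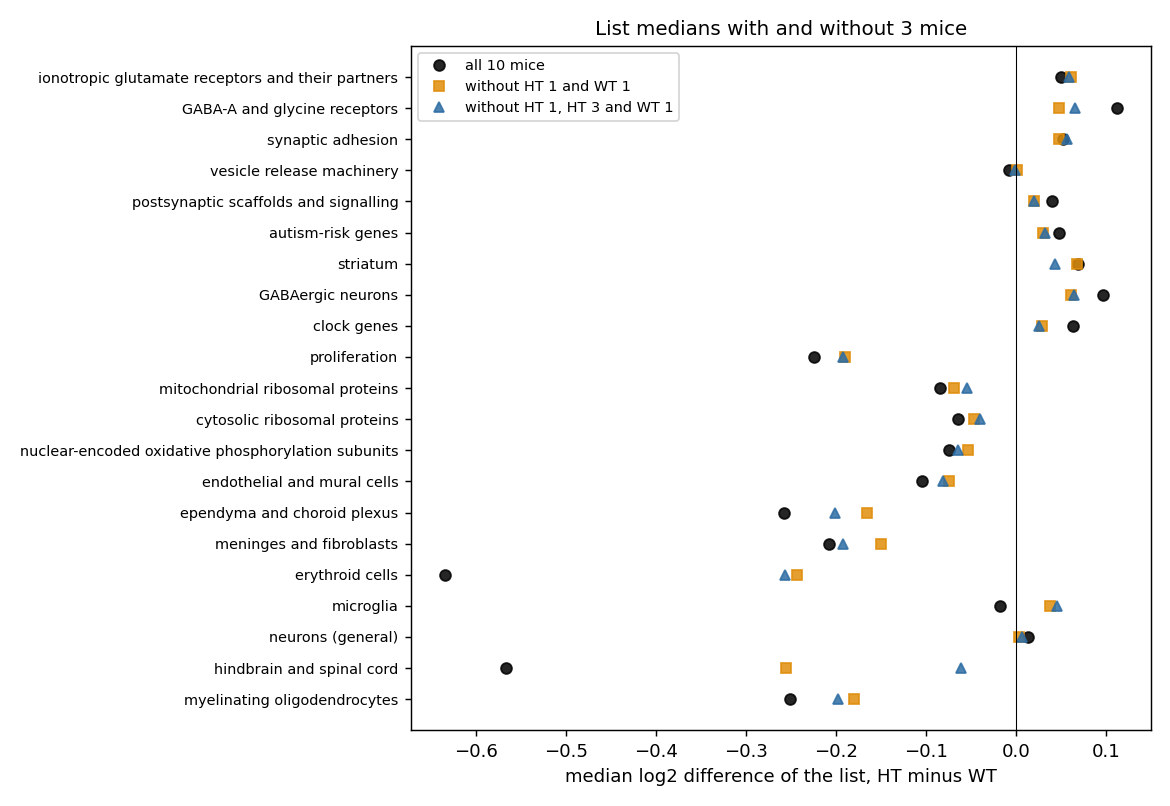
Median log2 difference of the lists with all 10 mice (circles), without HT replicate 1 and WT replicate 1 (squares), and without HT replicate 3 as well (triangles). The hindbrain median moves from -0.57 to -0.06, while that of proliferation goes from -0.23 to -0.19.

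Chromatin genes outside BAF gave counts in both directions. Other remodellers gave 5 of 31 higher and 1 lower, and 4 and 2 without HT replicate 1 and WT replicate 1. Ino80 averaged 1235 ± 75.0 against 1116 ± 30.9, and Chd3, the ATPase of NuRD-type complexes, 26788 ± 490 against 25519 ± 480. Atrx averaged 10066 ± 1495 against 8564 ± 303, and its difference of 0.22 was 0.13 without HT replicate 1 and WT replicate 1. Histone lysine methyltransferases and demethylases gave 5 of 48 higher and 6 lower, and 0 and 4 without HT replicate 1 and WT replicate 1, with Kdm5c at 2415 ± 111 against 2678 ± 163.

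Of 118 tested autism-risk genes, 26 were higher and 1 lower, 22.0% against 5.73%, with 89 above 0 and a median of 0.05. Without HT replicate 1 and WT replicate 1 the count was 10 higher and 1 lower, where 4.25% of all genes were higher, and 15 and 1 without HT replicate 3 as well. The list holds many synaptic and chromatin genes, so it shares members with the lists above. Herc1, a large ubiquitin ligase, stood at 10486 to 11076 in HT and 9400 to 10336 in WT, and Med13l, a Mediator kinase module subunit, at 3043 to 3234 and 2867 to 3009. The 28 interferon and antigen presentation genes gave 2 higher and 3 lower. Ifit1 stood at 39.7, 56.6, 19.3, 19.2 and 31.0 in HT and 10.1 to 18.8 in WT. The 41 Wnt pathway genes gave 1 higher and 2 lower.

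The other lists held members in both directions or few members. Axon guidance genes gave 9 of 52 higher and 5 lower, and 8 and 3 without HT replicate 1 and WT replicate 1. Imprinted genes gave 9 of 40 higher and 3 lower, and 4 and 3 of 39 without those mice. Collagens gave 3 of 25 higher and 6 lower, and neurotrophins and their receptors 3 of 11 higher and 0 lower. Cholesterol synthesis genes gave 3 of 24 higher and 1 lower, and heat shock chaperones 0 of 20 higher and 1 lower. Astrocyte markers gave 3 of 25 higher and 2 lower, and oligodendrocyte precursor markers 3 of 14 higher and 3 lower. Among regional markers, thalamus gave 3 of 12 higher and 0 lower, hypothalamus 3 of 16 higher and 1 lower, and olfactory bulb 2 of 12 higher and 0 lower. Cerebellum gave 2 of 20 higher and 3 lower, hippocampus 0 of 12 higher and 1 lower, and the pituitary markers 0 of 2 in either direction.

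At P120 the genes called at P10 were read in mice of the same line. HT-Veh replicate 2 and WT-Veh replicate 2 went against their labels on Arid1b, at 3361 and 2320, while the other HT-Veh mice ran from 1973 to 2480 and the other WT-Veh mice from 3036 to 3229. The vehicle comparison called 0 genes by limma, with 203 at an unadjusted p under 0.05 (1.14%). The Arid1b difference was -0.29, and -0.49 without those libraries, where 0 genes were called and 1.29% had an unadjusted p under 0.05. That of Tmem181b-ps was 0.22, and 0.45 without them, and that of Tmem181c-ps 0.20 and 0.42. In the fluoxetine groups Arid1b fell by 0.41 (adjusted p of 8.01e-04 from limma), and Tmem181b-ps and Tmem181c-ps rose by 0.33 and 0.32 (adjusted p of 0.00185 and 0.0360), the Tmem181c-ps call being lost without HT-Flx replicates 2, 3 or 4 or WT-Flx replicates 1, 4 or 5, in a comparison that called 63.7% of all genes and had 67.2% at an unadjusted p under 0.05. The Hbb-bs difference was 0.02 in the vehicle and 0.14 in the fluoxetine groups, with adjusted p of 0.996 and 0.629, and -0.35 in the vehicle groups without HT-Veh replicate 2 and WT-Veh replicate 2. The difference between ages, tested against the vehicle groups, called 0 genes by limma, with 612 at an unadjusted p under 0.05 (3.4%). For Hbb-bs it was -0.79, with an adjusted p of 0.877, and -0.43 without HT-Veh replicate 2 and WT-Veh replicate 2.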

How the data were processed

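Whole-brain poly-A RNA was sequenced as paired-end reads by the authors, quantified with Salmon 1.1.0 against GRCm38 with GC bias correction, summed to genes and normalized with DESeq2 1.30.1. The deposited values are this normalized signal. Low values were divided by the smallest nonzero value of their library, and only 3.71% to 4.60% lay within 0.02 of a whole number. Reads were therefore not recovered, depth is unknown and no counting interval is given. From these values, log2(value + 1) was fitted with limma 3.58.1 (R 4.3.3, intensity trend, Benjamini-Hochberg threshold 0.05) over genes with a mean of at least 10 in the libraries compared. Alternatives are listed in the closing section. On simulated data for the P10 comparison (17758 genes, 200 of them changed by 1 on the log2 scale), the test recovered 91.5% of the changed genes and also called 18 unchanged ones. The simulated noise was independent between genes, and the 4 genes called with all mice had differences smaller than 1. Recovery of such smaller differences was not measured. Single genes had a two-sided exact permutation test over mice. Symbols were matched for 99.9% of genes (GENCODE M21). Sequences are from GENCODE M21 transcripts.

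Named genes were Arid1b, every gene called at P10, the 8 highest and 8 lowest differences among genes with a mean of at least 50, groups that do not overlap and a symbol that is not a predicted locus, tested genes starting within 1 Mb of Arid1b, the other BAF and PBAF subunits, and in each of 50 lists the 3 members of smallest p and the most abundant one. Tmem181a, Dynlt1b and its paralogues, and Hoxb5, Col1a1, Snap25 and Map2 were chosen after their values were seen. The members and lists were chosen with earlier results of these data known. Replicate numbers were not treated as pairing the mice, except in the replicate block. Nothing in the labels says how litters were shared, so p-values measure the spread between these mice. Some genes that this rule selects are not reported here.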

Additional observations from a re-analysis of the deposited data

Results flagged for a closer look

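In groups of 5 mice, the highest or lowest value was set apart when its gap to the next value exceeded 0.71 of the group's range. Of 236 groups examined over 118 genes and summed lists, 28 met this, where chance gives about 1 in 20. Some items, such as Hoxb5 and Col1a1, were chosen after their values were seen, and the summed lists hold some of the single genes. The count is therefore not a measure of excess over chance.

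HT replicate 1 accounted for 15. It was highest for Smarca2 (gap of 0.827 of the range), Malat1 (0.744), Pla2g3 (0.797), Gabbr1 (0.767), Kcnq5 (0.781), Scg2 (0.759), Sox1 (0.808), mt-Atp8 (0.901), mt-Co1 (0.851), Atrx (0.744), Map2 (0.78) and the summed mitochondrially encoded messages (0.848). It was lowest for Atp5b (0.767), Olig1 (0.816) and the summed endothelial and mural cell genes (0.721).

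WT replicate 1 was highest for Emilin1 (0.717), Igf2 (0.789), Col1a1 (0.93) and the summed meningeal and fibroblast genes (0.956), and lowest for Tmem181b-ps (0.888) and Hoxb5 (0.72). WT replicate 5 was lowest for Arid1b (0.743) and highest for Nes (0.902) and mt-Atp8 (0.752). WT replicate 4 was highest for Smarcc2 (0.737) and Ino80 (0.751), WT replicate 3 lowest for Tmem181c-ps (0.73), and HT replicate 5 lowest for Rpsa (0.725).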

How the results depend on the processing

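Arid1b, Tmem181b-ps, Tmem181c-ps and Hbb-bs were called at P10, 4 genes in all, and the count was also 4 with other pseudocounts, without a filter or with a mean of 100 or more, after median-of-ratios rescaling and after GC and length correction. Leaving out 1 mouse at a time gave 3 to 8 calls, 8 without HT replicate 1. Chosen after seeing the data, leaving out HT replicate 1 and WT replicate 1 gave 8 calls. Leaving out HT replicate 3 as well gave 2 calls. Without HT replicate 1 and WT replicate 1, 1041 of 17829 tested genes had groups that do not overlap. Smaller groups separate more often by chance, so this count cannot be set against the 558 of 17896 from all mice. With all 6 groups in one fit 0 genes were called by limma. The replicate block gave 7 calls, and with GC and length correction 9. After the group mean of each gene was removed, same-numbered HT and WT mice correlated at -0.0281 to 0.0952, with a mean of 0.0429. HT and WT mice of different number had a mean correlation of -0.0105. Whether the numbers pair the mice is unknown. The block kept these 4 calls and added Hba-a1, Hba-a2 and Hbb-bt. It changed no call of the 4 genes at P120 or by age. Without a variance trend 5 genes were called at P10, among them AC110730.1 and Poll but not Hbb-bs (adjusted p of 0.0949 from limma), and the genotype by age test called 2 genes. With the variance trend kept and the fluoxetine groups in place of vehicle, the genotype by age test called 10803. The Hbb-bs difference at P120, 0.02 in the vehicle groups, turned to between -0.201 and -0.0500 when HT-Veh replicate 1 or 2 or WT-Veh replicate 1 or 2 was left out (-0.133 without HT-Veh replicate 2 and -0.0505 without WT-Veh replicate 1), and to -0.349 without both second replicates, and the highest value with 1 mouse left out was 0.177. In the fluoxetine groups leaving out 1 mouse gave -0.0146, without HT-Flx replicate 5, to 0.383. The causes were not tested. GC and length correction moved the share of higher genes among those with an unadjusted p under 0.05 from 45.6% to 51.2%. It turned the sign of the median of 8 of 50 lists and moved 4 by more than their spread between mice. Without HT replicate 1 and WT replicate 1, 10 medians turned and 3 moved that far. Without HT replicate 3 as well, 8 turned and 5 moved, and without WT replicate 4 alone 8 turned and 1 moved. Values of single lists after GC and length correction are not given here. Median-of-ratios rescaling gave 1139 higher and 1123 lower genes at that threshold and turned the median of 2 lists. Read depth is unknown, so what depth limits cannot be stated.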
